A study of Mus musculus with 21 samples.

Results

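The genes described here are 7 transcripts of recirculating and resting T cells, taken by name from a table of 12994 genes: S1pr1, S1pr4, Klf2, Klf3, Dapl1, Igfbp4 and Actn1. All 7 were present in the table and were measured in splenic CD4+ and CD8+ T cells after sorting. The donors were female C57BL6/J mice placed at weaning, at 4 weeks of age, in an enriched environment (EE) with large cages, running wheels and changing objects, or in a standard environment (SE) with smaller cages and no objects, for 4 weeks. The labels name no transgene or drug. CD4+ cells came from 6 EE and 5 SE mice and CD8+ cells from 6 EE and 4 SE mice, which made 21 samples from 12 mice, 9 of which gave both populations. The labels place the mice of an environment in the same cage, so cage and environment cannot be told apart.

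A T cell that has not met its antigen circulates between blood and lymphoid organs. It leaves the organ by following sphingosine-1-phosphate (S1P), a lipid that is abundant in blood and lymph and scarce in tissue, with the receptor S1PR1. The transcription factor KLF2 keeps such cells quiescent and drives S1pr1 transcription, and transcription of both falls when a T cell is activated or settles in a tissue. S1PR4 is a second S1P receptor of lymphocytes. KLF3 is a repressor of the same Krüppel-like family that binds the same CACCC-type sites. Dapl1 encodes a small protein related to death-associated protein, Igfbp4 a secreted protein that binds insulin-like growth factors, and Actn1 the actin cross-linker alpha-actinin 1. The last 3 serve as transcripts of naive T cells in mouse data rather than as homing receptors, and of the 7 genes only S1pr1 and S1pr4 encode receptors of the cell surface.

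The values are unique molecule counts divided by a size factor of the sample, called normalized counts below. A unique molecular identifier is a random tag that lets copies of 1 cDNA molecule be counted once. Total molecules per sample ranged from 145546 to 190885 in CD4+ and from 179008 to 221454 in CD8+ samples, with size factors from 0.794 to 1.26, so a normalized count is close to a number of molecules. The sorted populations carried their markers. Cd4 was 42.7 to 85.8 in CD4+ samples and 0 to 0.966 in CD8+ samples, and the summed level of Cd8a and Cd8b1 was 1.26 to 9.15 against 275 to 337. The 7 T-cell receptor and CD3 markers summed to 597 to 751 and to 602 to 724. RNA of other cells was also present. The 10 B-cell markers summed to 36.0 to 365 in CD4+ and to 34.8 to 107 in CD8+ samples, and 2 CD8+ samples, EE replicate 6 and SE replicate 3, stood apart with summed erythroid markers of 580.5 and 1033 where every other sample had at most 26.7.

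Each gene was located in GENCODE on build GRCm38. Igfbp4 (ENSMUSG00000017493) lies on the plus strand at chr11:99041244-99054392 with 4 exons in its principal transcript. Dapl1 (ENSMUSG00000026989) lies on the plus strand at chr2:59484653-59505020 with 4 exons and encodes 107 residues. S1pr1 (ENSMUSG00000045092) lies on the minus strand at chr3:115710433-115715072 with 2 exons, and S1pr4 (ENSMUSG00000044199) is a single exon on the minus strand at chr10:81497747-81500132. Klf2 (ENSMUSG00000055148) lies on the plus strand at chr8:72319033-72321656 with 3 exons. Klf3 (ENSMUSG00000029178) lies on the plus strand at chr5:64803388-64832901 and overlaps 1 annotated gene on its own strand and 1 on the other. Actn1 (ENSMUSG00000015143) lies on the minus strand at chr12:80167547-80260371 and overlaps 1 on its own strand and 2 on the other. The counts of these 2 genes may therefore be less certain than those of the other 5, which overlap none, but shared reads were not measured.

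The 250 bases before the start site were read from RefSeq on GRCm38.p6 for 6 of the 7 genes, all but S1pr1. Those of Igfbp4 (plus strand, chr11:99040994-99041243) and Dapl1 (plus strand, chr2:59484403-59484652) are shown because these are the 2 genes that differed between the populations. Capitals mark a match, on either strand, to CACCC, which reads GGGTG on the opposite strand and is the core of sites bound by KLF factors, or to GTAAACA, which reads TGTTTAC there and is the core of sites bound by FOXO factors.
Igfbp4: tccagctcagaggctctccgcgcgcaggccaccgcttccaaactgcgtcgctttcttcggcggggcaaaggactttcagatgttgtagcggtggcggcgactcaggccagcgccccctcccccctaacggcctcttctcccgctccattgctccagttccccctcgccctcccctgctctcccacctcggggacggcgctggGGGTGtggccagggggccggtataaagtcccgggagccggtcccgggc
Dapl1: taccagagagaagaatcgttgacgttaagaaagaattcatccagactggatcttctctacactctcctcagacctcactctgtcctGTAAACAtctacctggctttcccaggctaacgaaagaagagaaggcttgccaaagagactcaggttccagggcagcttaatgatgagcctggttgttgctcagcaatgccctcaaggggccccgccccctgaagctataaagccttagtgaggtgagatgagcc
The Igfbp4 window held 1 CACCC match and no GTAAACA match, with 69.2% G and C, whereas the Dapl1 window held 1 GTAAACA match and no CACCC match, with 50% G and C against a median of 52.4% over all 32851 windows. CACCC was found in 52.01% of all windows and GTAAACA in 3.166%. The Klf3 window held 5 CACCC matches, those of Klf2 and S1pr4 1 each, and that of Actn1 0. The ETS-type letters CCGGAAGT, searched on both strands and present in 2.877% of all windows, were in 0 of the 6 windows. The motifs did not overlap one another. These are matches of letters only.

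The first comparison asked how the genes differ between CD4+ and CD8+ T cells. Of the 7 genes, Igfbp4 was higher and Dapl1 lower in CD4+ cells, by 2.32-fold and 1.73-fold in mean normalized count, and the other 5 did not pass an adjusted p of 0.05 (limma on log2(normalized count + 1) with Benjamini-Hochberg adjustment over the 7938 genes with a mean above 2, environment as a covariate). Across all genes tested 374 passed, which is 4.71%, with 2.48% higher and 2.23% lower in CD4+ cells. The ranges of all CD4+ and all CD8+ samples were apart for 0 of the 7 genes, beside 0.869% of genes tested. All 7 genes passed the filter on means. The median log2 difference of the 7 was -0.08 against -0.01 over all genes. As these samples are pools of sorted cells, fewer cells with a transcript and less of it per cell cannot be told apart.

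**Figure D1:**
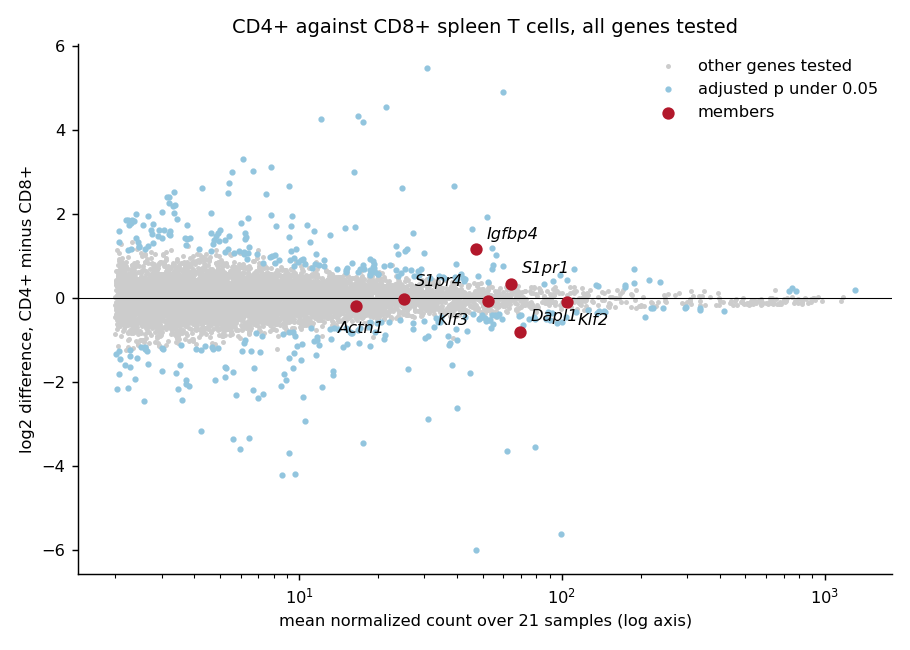
Log2 difference between CD4+ and CD8+ samples (vertical axis, positive where CD4+ was higher) against the mean normalized count over 21 samples (log axis) for the 7938 genes tested, with genes past an adjusted p of 0.05 in blue and the 7 genes of this account in red. Igfbp4 lies at 1.16 and Dapl1 at -0.81, while the other 5 lie between -0.20 and 0.34.

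Igfbp4 was the gene with the larger difference. In CD4+ EE samples its normalized count ranged from 29.3 to 83.4 with a median of 63.3, and the 5 CD4+ SE samples had 69.0, 74.1, 63.1, 78.8 and 61.9. In CD8+ EE samples it ranged from 22.3 to 34.4 with a median of 27.1, and the 4 CD8+ SE samples had 27.4, 19.6, 32.7 and 33.6. The SE groups did not overlap, as was the case for 3.67% of genes tested in SE, and in EE only CD4+ replicate 5, with 29.3 from 32 molecules, fell within the CD8+ range. The means were 60.7 ± 17.9 (SD, n = 6) and 69.4 ± 7.20 (SD, n = 5) in CD4+ EE and SE, and 27.6 ± 4.73 (SD, n = 6) and 28.3 ± 6.45 (SD, n = 4) in CD8+ EE and SE. This gave a log2 difference of 1.16 with a standard error of 0.135 (adjusted p = 6.47e-10 in limma), which ranked the gene number 34 of all genes by p. It was 1.06 in EE samples alone (adjusted p = 4.34e-05 in limma) and 1.29 in SE samples alone (adjusted p = 3.72e-06 in limma), where 2.88% and 1.32% of genes passed.

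Dapl1 ran the other way. Its normalized count ranged from 29.0 to 64.2 with a median of 47.4 in CD4+ EE samples, and was 79.3, 42.1, 51.2, 62.7 and 46.2 in the CD4+ SE samples. It ranged from 68.9 to 112.8 with a median of 83.8 in CD8+ EE samples, and was 100.2, 101.5, 73.3 and 84.6 in the CD8+ SE samples. The EE groups did not overlap, as was the case for 1.98% of genes tested in EE, and in SE the groups met at CD4+ replicate 1 and CD8+ replicate 3. The means were 47.5 ± 11.6 (SD, n = 6) and 56.3 ± 15.0 (SD, n = 5) in CD4+ EE and SE, and 88.6 ± 15.8 (SD, n = 6) and 89.9 ± 13.5 (SD, n = 4) in CD8+ EE and SE. This gave a log2 difference of -0.81 with a standard error of 0.118 (adjusted p = 3.23e-07 in limma), with -0.91 in EE alone (adjusted p = 2.51e-05 in limma) and -0.69 in SE alone (adjusted p = 0.0227 in limma).

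Both differences held within single mice. Igfbp4 was higher in the CD4+ than in the CD8+ sample in 9 of 9 mice, by 1.08 ± 0.419 on the log2 scale (SD, n = 9 mice; exact two-sided sign-flip permutation test, p = 0.00391, the smallest this design can give). The differences of single mice ran from 0.202 in EE mouse 5 to 1.53 in EE mouse 4. Dapl1 was higher in the CD8+ sample in 9 of 9 mice, with a mean CD4+ minus CD8+ difference of -0.824 ± 0.425 (SD, n = 9 mice; same exact test, p = 0.00391) and single values from -1.54 in EE mouse 2 to -0.329 in EE mouse 1.

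**Figure D2:**
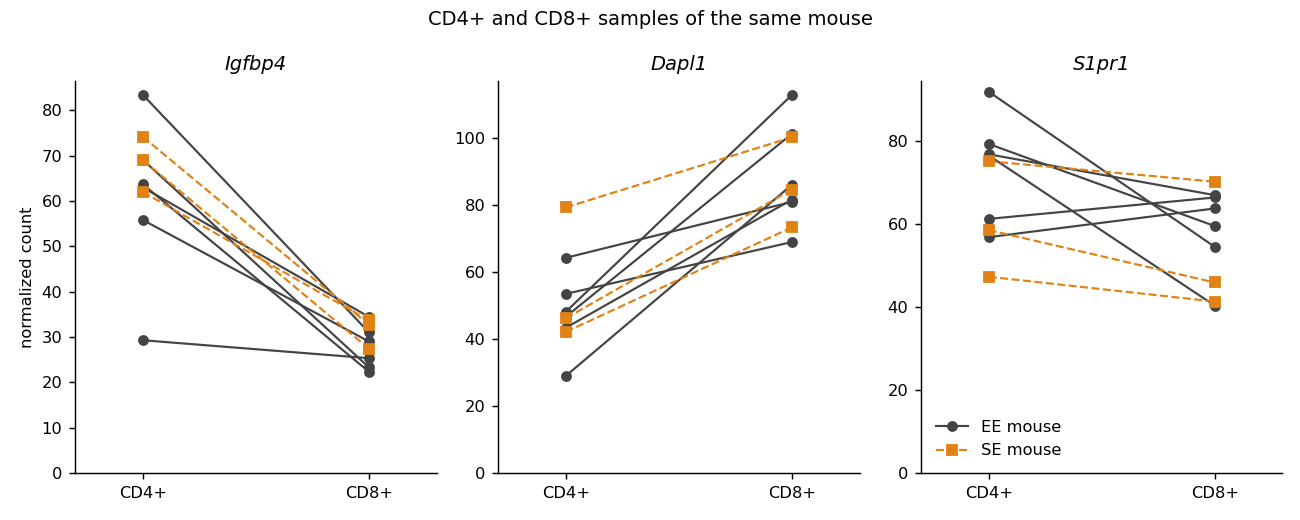
Normalized count of Igfbp4, Dapl1 and S1pr1 (vertical axes, from 0) in the CD4+ and CD8+ sample of each of 9 mice, with a line for each mouse, circles and full lines for EE and squares and dashed lines for SE. Igfbp4 falls from CD4+ to CD8+ in 9 of 9 mice, Dapl1 rises in 9 of 9 and S1pr1 falls in 7 of 9.

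The B-cell markers moved with the populations, and 5 of the 7 tested were higher in CD4+ samples. In CD4+ SE replicate 1, whose B-cell sum of 36.0 was at the level of CD8+ samples, Igfbp4 was 69.0, within the range of the other CD4+ SE samples, and Dapl1 was 79.3, above all other CD4+ samples. This is 1 sample, and the part of B-cell RNA in either difference was not tested. Without the 2 samples rich in erythroid markers the log2 differences were 1.15 for Igfbp4 (adjusted p = 5.94e-09 in limma) and -0.87 for Dapl1 (adjusted p = 4.85e-07 in limma).

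Among the receptors, S1pr1 was nearest to the threshold. Its normalized count ranged from 56.9 to 91.9 with a median of 76.7 in CD4+ EE samples, and was 75.2, 58.6, 74.1, 85.5 and 47.3 in CD4+ SE samples. It ranged from 40.4 to 66.99 with a median of 61.7 in CD8+ EE samples, and was 70.2, 54.9, 45.9 and 41.3 in CD8+ SE samples. The CD4+ EE mean of 73.8 ± 12.8 (SD, n = 6) and the CD4+ SE mean of 68.1 ± 15.1 (SD, n = 5) lay above the CD8+ means of 58.6 ± 10.1 (SD, n = 6) and 53.1 ± 12.7 (SD, n = 4), but the groups overlapped. The log2 difference between the populations was 0.34 (95% interval 0.11 to 0.57, unadjusted p = 0.00467, adjusted p = 0.0821 in limma). An unadjusted p under 0.05 was found for 15.4% of all genes. S1pr1 was higher in the CD4+ sample in 7 of 9 mice, by 0.290 ± 0.358 on the log2 scale (SD, n = 9 mice; exact two-sided sign-flip permutation test, p = 0.0352). With every sample rescaled to the same total the adjusted p was 0.0495 in limma, so the call depended on the scaling, and without the 2 samples rich in erythroid markers the log2 difference was 0.25 (adjusted p = 0.304 in limma).

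S1pr4 was close to level over the groups. Its normalized count ranged from 14.6 to 41.8 with a median of 23.4 in CD4+ EE and from 20.4 to 38.7 with a median of 24.3 in CD8+ EE samples. It was 26.8, 32.0, 32.9, 20.9 and 16.9 in CD4+ SE and 24.0, 18.6, 19.4 and 28.8 in CD8+ SE samples. Replicate 2 was the highest EE sample of either population, and all 4 groups overlapped. The log2 difference between CD4+ and CD8+ was -0.01 (95% interval -0.34 to 0.32, adjusted p = 0.983 in limma), and its sign changed with the scaling.

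Klf2, the quiescence factor, varied little. It ranged from 94.4 to 116.9 with a median of 99.0 in CD4+ EE and from 99.5 to 132.8 with a median of 105.0 in CD8+ EE samples. The CD4+ SE samples had 90.6, 108.0, 99.7, 105.4 and 90.1, and the CD8+ SE samples 118.2, 85.7, 111.3 and 98.0. The log2 difference between CD4+ and CD8+ was -0.09 (95% interval -0.26 to 0.09, adjusted p = 0.711 in limma), and 7 of 9 mice were higher in the CD8+ sample (mean -0.133 ± 0.176 on the log2 scale, SD, n = 9 mice; exact two-sided sign-flip permutation test, p = 0.0508).

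Klf3, its relative, ranged from 39.3 to 72.9 with a median of 47.6 in CD4+ EE and from 37.8 to 65.7 with a median of 52.9 in CD8+ EE samples. It was 45.3, 45.8, 56.7, 55.1 and 57.4 in CD4+ SE and 60.8, 58.7, 64.5 and 40.4 in CD8+ SE samples. The groups overlapped, and the log2 difference was -0.08 (95% interval -0.32 to 0.16, adjusted p = 0.833 in limma). Actn1 had the fewest molecules, 10 to 26 per sample. Its normalized count ranged from 11.1 to 20.4 with a median of 12.9 in CD4+ EE and from 11.7 to 21.3 with a median of 17.9 in CD8+ EE samples. It was 15.4, 21.0, 14.6, 14.2 and 21.4 in CD4+ SE and 20.6, 21.4, 16.8 and 14.4 in CD8+ SE samples. The lowest mean was that of CD4+ EE, and the log2 difference between CD4+ and CD8+ was -0.20 (95% interval -0.55 to 0.16, adjusted p = 0.667 in limma).

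**Figure D3:**
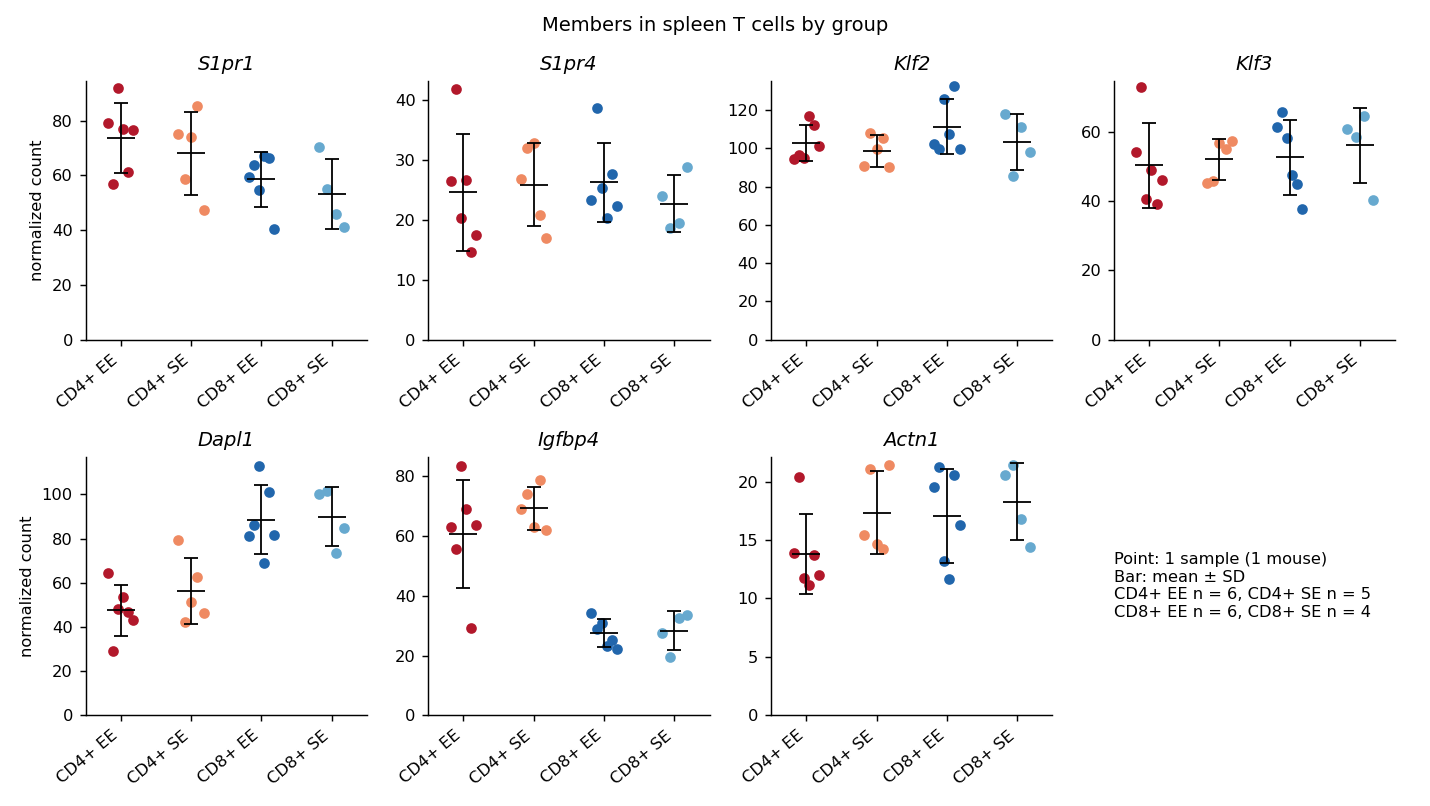
Normalized count (vertical axes, each from 0) of the 7 genes in the 4 groups, with a point for each sample and bars for the mean ± SD (n = 6, 5, 6 and 4 from left to right). The CD4+ and CD8+ groups separate for Igfbp4, except for 1 CD4+ EE sample at 29.3, and nearly separate for Dapl1, and the groups of the other 5 genes overlap.

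The order of the 4 group means was examined with exact two-sided permutation tests between neighbours. For Dapl1 the order was CD8+ SE, CD8+ EE, CD4+ SE and CD4+ EE, and only the step from CD8+ EE to CD4+ SE exceeded the spread (exact p = 0.00866 over 462 splits, unadjusted). For Igfbp4 the order was CD4+ SE, CD4+ EE, CD8+ SE and CD8+ EE, and only the step from CD4+ EE to CD8+ SE exceeded it (exact p = 0.0238 over 210 splits, unadjusted). S1pr1 descended from CD4+ EE through CD4+ SE and CD8+ EE to CD8+ SE with no neighbouring step beyond the spread (exact p = 0.297 to 0.5). No neighbouring step of S1pr4, Klf2, Klf3 or Actn1 exceeded the spread either (exact p = 0.162 to 0.995).

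The second comparison asked whether housing changed these genes. In CD4+ cells 0 of the 7 passed an adjusted p of 0.05 between EE and SE in limma, beside 0.0126% of 7939 genes tested, and 0 of the 7 had an unadjusted p under 0.05, beside 5.82% of genes. The median log2 difference of the 7 was -0.11 against 0.00 over all genes. The 3 genes with the largest differences were all lower in mean in EE. The Actn1 mean was 13.8 ± 3.40 in the EE samples (SD, n = 6) and 17.4 ± 3.56 in the SE samples (SD, n = 5), or -0.32 on the log2 scale with a 95% interval of -0.84 to 0.21. Igfbp4 differed by -0.25 (95% interval -0.61 to 0.11) and Dapl1 by -0.24 (95% interval -0.62 to 0.13). Single samples carried much of both values, as Igfbp4 was at -0.058 without EE replicate 5 and Dapl1 at -0.11 without EE replicate 2 and also without SE replicate 1. For the remaining genes the log2 difference was 0.13 for S1pr1 (95% interval -0.20 to 0.45), -0.11 for S1pr4 (-0.59 to 0.37), 0.06 for Klf2 (-0.21 to 0.32) and -0.07 for Klf3 (-0.42 to 0.28). The S1pr1 value lay between 0.0037, without SE replicate 6, and 0.21, without SE replicate 5, and over the same 11 fits Klf2 lay between 0.019 and 0.090, Klf3 between -0.18 and -0.0069 and Actn1 between -0.43 and -0.24. The adjusted p in limma was between 0.886 and 0.972 for the 7 genes.

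The context lists, which were chosen with earlier results of these data known, differed in the direction of their medians in CD4+ cells. The 21 genes of the naive list, which include Dapl1, Igfbp4 and other members, had a median log2 difference of -0.16 over the 20 tested, with 0 past the adjusted threshold. The 24 genes of the list of antigen-experienced cells had a median of 0.47 over the 19 tested, with 1 past it, S100a6 (adjusted p = 0.0178 in limma). That call was lost with a pseudocount of 0.5, a mean above 10 or all 21 samples in the fit (adjusted p = 0.0606 to 0.426 in limma). It was also lost in 5 of 11 fits without 1 sample, and over the 11 fits the log2 difference stayed between 1.22 and 1.65. The replicate block lost it too (adjusted p = 0.158 in limma). Between EE and SE that block joins mice that share only a number. The summed normalized counts of the antigen-experienced list ranged from 489 to 905 in CD4+ EE and from 387 to 610 in CD4+ SE samples. In CD8+ cells the median log2 difference was -0.03 for the naive list (21 tested) and 0.02 for the antigen-experienced list (17 tested). Whether the 2 lists differ from each other was not tested. The part of these lists in the values of Actn1, Igfbp4 and Dapl1 was not tested.

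In CD8+ cells 0 of the 7 passed between EE and SE, beside 0.0% of 7840 genes tested, and again 0 of the 7 had an unadjusted p under 0.05, beside 5.27% of genes. The log2 difference was 0.15 for S1pr1 (95% interval -0.18 to 0.48), 0.19 for S1pr4 (-0.25 to 0.63), 0.11 for Klf2 (-0.14 to 0.35) and -0.09 for Klf3 (-0.43 to 0.24). Dapl1 differed by -0.03 (95% interval -0.30 to 0.24), Igfbp4 by -0.02 (-0.45 to 0.40) and Actn1 by -0.11 (-0.61 to 0.39). Over the 10 fits without 1 sample S1pr1 lay between 0.040, without SE replicate 6, and 0.29, without SE replicate 1, S1pr4 between 0.078 and 0.31, Klf2 between 0.023 and 0.18, Klf3 between -0.24 and -0.0048 and Actn1 between -0.21 and -0.013. The signs of Igfbp4 and Klf3 reversed without the 2 samples rich in erythroid markers. The interaction, which tests whether the housing difference differs between CD4+ and CD8+ cells, passed for 0 of the 7 genes, beside 0.0% of 7938, and 0 of the 7 had an unadjusted p under 0.05, beside 4.95%. The log2 interaction was between -0.30 for S1pr4 and 0.02 for Klf3.

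**Figure D4:**
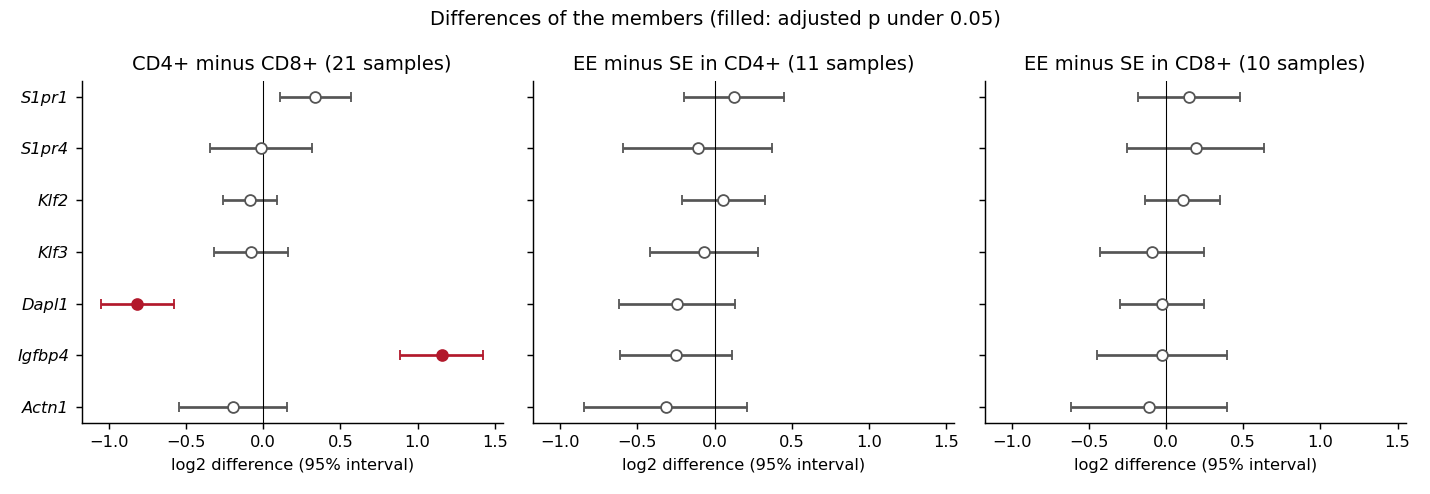
Log2 differences with 95% intervals (horizontal axes) for the 7 genes between CD4+ and CD8+ samples and between EE and SE in each population, with filled red points where the adjusted p was under 0.05. Igfbp4 at 1.16 and Dapl1 at -0.81 are filled in the first panel, and every interval of the housing comparisons spans 0.

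The relatives and pathways of the 7 genes were read from lists. Of 21 genes of S1P production, transport, receptors and signaling, 16 were in the table and 13 were tested, and 0 passed between CD4+ and CD8+ cells, beside 4.71% of all genes, a share at which 0 of so few genes is near the background. Of the other S1P receptors, S1pr2 was detected in 10 of 21 samples at no more than 2 molecules, and S1pr5, a receptor of natural killer and effector cells, in 2 samples, both CD4+ EE, at no more than 4. A count of 0 allows up to 3 molecules in a sample, for counting error only, so differences were not detectable at this depth. Of 17 Krüppel-like factors, 9 were in the table and 7 were tested, with 0 past the threshold, which is again near the background. Klf13 had a mean of 67.2 ± 11.2 (SD, n = 21), Klf6 13.5 ± 5.19 and Klf7 9.15 ± 2.27 in the same samples, while Klf10, Klf16, Klf11 and Klf9 had means of 2.97, 2.32, 0.618 and 0.364. Igfbp4 was the only gene of its family in the table and the only one of 3 tested genes of the IGF axis past the threshold. Actn4, the other non-muscle actinin, had a mean of 10.1 ± 4.73 (SD, n = 21), and Actn2 1.73 ± 1.60.

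Of 14 tested genes of actinin and adhesion cytoskeleton 1 was higher and 1 lower in CD4+ cells, and of 18 tested genes of migration and homing likewise 1 and 1, beside 4.71% of all genes, and whether these lists differ from other genes was not tested. Flna, the actin cross-linker filamin A, was 40.3 ± 8.68 (SD, n = 11) in CD4+ and 27.5 ± 5.52 (SD, n = 10) in CD8+ samples, a log2 difference of 0.53 (adjusted p = 0.0112 in limma). Zyx, the focal adhesion protein zyxin, was 11.5 ± 4.18 (SD, n = 11) in CD4+ and 20.2 ± 4.86 (SD, n = 10) in CD8+ samples, a log2 difference of -0.81 (adjusted p = 0.00356 in limma). Within environments the Flna difference was of similar size but not called, at 0.57 in EE (adjusted p = 0.0839 in limma) and 0.49 in SE (adjusted p = 0.4662 in limma). Zyx was called in EE at -1.11 (adjusted p = 0.0055 in limma) and not in SE at -0.42 (adjusted p = 0.748 in limma), and the interaction of environment and population did not pass (adjusted p = 0.994 in limma). Arhgap15, a Rac-inactivating protein of the migration list, had a log2 difference of 0.38 (adjusted p = 0.0328 in limma, and 0.0804 with the mouse as a block), with 0.24 in EE and 0.56 in SE, neither of them called alone. Its call was also lost without the 2 samples rich in erythroid markers (0.37, adjusted p = 0.0647 in limma) and held in only 12 of 21 fits without 1 sample (adjusted p = 0.0188 to 0.0783 in limma). In the list of naive cells 1 of 21 tested genes rose and 3 fell. Ccr9, the receptor that guides lymphocytes to the small intestine, had at most 3 molecules in any CD4+ sample and a normalized count of 18.6 ± 6.18 (SD, n = 10) in CD8+ samples, a log2 difference of -3.68 (adjusted p = 7.36e-15 in limma). It passed the filter on means only through the CD8+ samples. The size of its difference depends on the method, at -4.35 with a pseudocount of 0.5 and -4.86 with DESeq2, so -3.68 understates it. In that list Igfbp4 and Dapl1 moved in opposite directions between the populations. The list of antigen-experienced cells had 7 of 20 tested genes higher and 4 lower in CD4+ cells. Its 4 genes with the smallest p were Nkg7 and Ly6c2, transcripts of cytotoxic and memory CD8+ cells, with log2 differences of -3.54 and -3.64, and Maf and S100a6, with 3.00 and 2.99. The sizes varied over the alternative settings named below. They ran from -3.95 to -3.24 for Nkg7, from -4.19 to -2.90 for Ly6c2, from 2.81 to 5.11 for Maf and from 1.93 to 3.78 for S100a6.

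The spread between samples of a group was compared with counting error by a dispersion index, the residual variance of molecule counts over that expected from Poisson counting, which is 1 for counting error alone. It was 2.97 for Dapl1, 2.58 for S1pr1, 2.35 for Igfbp4, 2.25 for S1pr4, 2.14 for Klf3, 1.44 for Klf2 and 0.815 for Actn1. At a given relative spread the index rises with the mean count, so it does not rank genes of different level.

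Patterns over samples were compared by the correlation of deviations from the 4 group means over 21 samples among 2727 genes with a mean above 10, as a description. The genes most like Igfbp4 were Cd7 (r = 0.825), Med10 (0.784) and Lsm12 (0.673), those most like Dapl1 were H2afj (0.748), Mdh1 (0.739) and Dhx36 (0.722), and those most like S1pr1 were Eef1g (0.729), Klk8 (0.718) and H2afj (0.716). H2afj, a histone H2A variant, is shared by Dapl1 and S1pr1. S1pr4 was nearest to Yipf3 (0.788), Aes (0.704) and Ctcf (0.676), Klf2 to Ostm1 (0.705), Sppl2a (0.699) and Prpf6 (0.677), and Klf3 to Ppp6r3 (0.714), Dcaf8 (0.712) and B4galnt1 (0.698). Actn1 was nearest to Gm15421 (0.699), Fkbp3 (0.691) and Rpl9.ps6 (0.685), of which the first and last are pseudogenes whose counts can include reads of their parent genes. The values are picked as the highest of 2727, and the samples share depth and cell make-up. Among the 7 genes themselves, 42 correlations within the 11 CD4+ or the 10 CD8+ samples were computed and 0 passed after adjustment. The strongest was between S1pr1 and Actn1 in CD4+ samples (n = 11, Pearson r = -0.842, permutation p = 0.00151, adjusted p = 0.0634; Spearman rho = -0.727, permutation p = 0.0149), and dropping the 2 samples with the most distant S1pr1 values left r at -0.722.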

How the data were processed

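The cDNA of sorted spleen T cells, tagged with unique molecular identifiers, was sequenced on an Ion Proton instrument. The authors trimmed reads with cutadapt, aligned them with STAR 2.4.0a to mm10, counted molecules with the Drop-seq tools using Ensembl gene models of GRCm38, left out samples by purity and genes of low abundance, and divided by DESeq2 size factors. The deposited signal is this normalized count, for 21 samples. The purity rule in the paper excludes CD4 samples in which CD8a and CD8b are above 0. The CD4+ samples kept here had a summed Cd8a and Cd8b1 level of 1.26 to 9.15, and how the rule was applied to spleen samples is not known. Template switching places the identifier at the 5′ end, so a count does not scale with transcript length. Dividing a column by the smallest value above 0 in it returned molecules, and 100% of values came out whole within 0.001.

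Groups, mice and replicate numbers were taken from the labels. The CD4+ and CD8+ samples of 1 environment and animal number come from the same mouse, whereas equal numbers in EE and SE do not mark the same animal. Deviations from the group means correlated at -0.0149 to 0.0354 between the 2 samples of a mouse. As a check for duplicate libraries, the 46 pairs of samples within a group were compared, and 0 agreed within sampling noise (largest p = 5.996e-119, chi-square test over genes).

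Comparisons used limma 3.58.1 (trend) in R 4.3.3 on log2(value + 1), which understates changes of low genes, for genes with a mean above 2, with Benjamini-Hochberg adjustment over all genes tested and a threshold of 0.05. The interaction was fitted over all 21 samples. Pairs of groups were compared by exact permutation tests, and with 100000 resamples for correlations. Alternatives were sample weights, samples rescaled to the same total, a mean above 10, no filter on means, a pseudocount of 0.5, a replicate block, single environments, all 21 samples in 1 fit, each sample left out in turn, edgeR 4.0.16 and DESeq2 1.42.0 on the recovered molecules, and, chosen after seeing the data, the 2 samples rich in erythroid markers left out. On simulated data with 200 genes changed 2-fold, limma recovered 97% between CD4+ and CD8+, 75% between EE and SE in CD4+, 70% in CD8+ and 33% for the interaction. The rest was run in Python 3.11.15 (pandas 2.3.3, SciPy 1.17.1, NumPy 2.4.6 and Matplotlib 3.10.9).

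The 7 genes and the gene lists were chosen with earlier results of these data known. Named are the 7 genes, their family members, list genes past the threshold (at most 4 for each list and comparison) and the 3 genes most like each of the 7. A gene shared by the migration and naive lists is not reported here. The labelled cell numbers, which are serial, were not used.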

Additional observations from a re-analysis of the deposited data

Results flagged for a closer look

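The Actn1 value of CD4+ EE replicate 2, a normalized count of 20.4, lay far from the other 5 samples of its group, which ranged from 11.1 to 13.9. Among 28 groups of samples of the 7 genes this was the only such value, where about 1.4 are expected by chance. The same sample also had the highest S1pr4 (41.8) and Klf3 (72.9) and the lowest Dapl1 (29.0) and S1pr1 (56.9) of the CD4+ EE samples.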

How the results depend on the processing

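Igfbp4 and Dapl1 stayed called in the same direction between CD4+ and CD8+ cells in each of 11 alternatives and 21 fits that each left out 1 sample, with log2 differences of 1.06 to 1.29 and -0.91 to -0.69 in the alternatives, and 1.09 to 1.27 and -0.87 to -0.74 in those fits. In the housing comparisons and the interaction 0 of the 7 genes passed in any alternative. S1pr1 passed between CD4+ and CD8+ with the same total (0.36). Over the 21 fits without 1 sample its adjusted p lay between 0.0284 and 0.187, under 0.05 in 3, so that 2 to 3 of the 7 genes passed.

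Genes past the threshold between CD4+ and CD8+ cells numbered 374, and 235 with a mean above 10, 227 in EE alone, 105 in SE alone and 321 to 393 over the fits without 1 sample. Between EE and SE in CD4+ cells the 1 gene became 0 with a pseudocount of 0.5 (439 at an unadjusted p under 0.05), a mean above 10 (191), the replicate block (450) or all 21 samples in the fit (565), 3 with no filter on means, 2 with edgeR, and 0 to 3 over the 11 fits without 1 sample. In CD8+ cells the 0 genes (413 at an unadjusted p under 0.05) became 3 with no filter on means, 2 with the replicate block and 0 to 3 over the 10 such fits. The interaction gave 0 genes in every limma, edgeR and DESeq2 setting (393 at an unadjusted p under 0.05 in limma).

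Signs that reversed belonged to values near 0. S1pr4 between CD4+ and CD8+ was 0.00463 with the same total, 0.016 with edgeR, 0.022 with DESeq2 and 0.16 in SE alone, and Klf2 between CD4+ EE and CD8+ SE was 0.0079 with the same total. With the replicate block, Dapl1 and Igfbp4 between EE and SE in CD8+ were 0.0056 and 0.055, and the interactions of S1pr1 and Klf2 were 0.12 and 0.072. Without the samples rich in erythroid markers, Igfbp4 and Klf3 between EE and SE in CD8+ were 0.11 and 0.068, and the interaction of Klf3 was -0.14. Over the fits without 1 sample, S1pr4 ran from -0.097 to 0.063 between CD4+ and CD8+ and from -0.28 to 0.016 between EE and SE in CD4+. In CD8+ cells Dapl1 ran from -0.12 to 0.041 and Igfbp4 from -0.19 to 0.065. The interactions ran from -0.16 to 0.086 for S1pr1, from -0.12 to 0.034 for Klf2 and from -0.089 to 0.17 for Klf3. The cause was not tested for any of these. EE and SE mice of equal number are not the same animals, and their deviations correlated with a median r of 0.0003 in CD4+ and 0.0062 in CD8+ samples. The replicate block between EE and SE therefore joins mice that share only a number, and its counts of genes say little about how firm a call is. The mouse as a replicate block changed the call of Arhgap15 and of 0 of the 7 genes between CD4+ and CD8+ cells. Actn1, with 10 to 26 molecules a sample, has the widest intervals.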

Other observations

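In the S1P list, Gnai2, the G-protein subunit through which S1PR1 signals, was singled out after its values were seen. It was the only 1 of 13 tested genes of the list with an unadjusted p under 0.05 in limma between EE and SE in either population. Across all genes tested that share was 5.82% in CD4+ and 5.27% in CD8+ cells, so 1 of 13 is near the background. The Gnai2 normalized count was 65.5 ± 9.33 (SD, n = 6) in CD4+ EE and 50.9 ± 8.53 (SD, n = 5) in CD4+ SE samples, and 50.6 ± 9.86 (SD, n = 6) in CD8+ EE and 65.5 ± 9.72 (SD, n = 4) in CD8+ SE samples. The log2 difference between EE and SE was 0.36 in CD4+ cells (unadjusted p = 0.0318, adjusted p = 0.823 in limma) and -0.38 in CD8+ cells (unadjusted p = 0.0216, adjusted p = 0.923 in limma). The interaction was 0.74 (unadjusted p = 0.00182, adjusted p = 0.924 in limma) and ranked number 7 by p among 7938 genes, so it did not pass the adjustment. Over 21 fits without 1 sample it stayed between 0.64 and 0.83.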
